A study of Mus musculus with 2 samples.

Results

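The T cell receptor signalling machinery comprised 43 named genes that carry the signal of the antigen receptor inwards, out of 21887 protein-coding genes in the RefSeq table on chromosomes 1 to 19, X and Y. Accessible regions, the peaks of an assay for transposase-accessible chromatin (ATAC-seq), were assigned to a member when they overlapped its gene span extended by 10 kb on each side. All 43 genes were found, no peak fell to 2 of them, and 543 peaks in treatment and 637 in control were assigned. The protein-coding loci of the genome, built the same way, took 50438 and 64958 peaks. Treatment and control name the libraries by their titles, with 1 library of mouse CD8+ T cells in each. A further label field reads "Combined treatment" for the library titled treatment and "Treatment" for the one titled control, and neither says what the cells received. No strain or age stands in the labels, the genotype field names no genotype, and the series title calls the cells Peml-1. Without replicates no test was made, and each difference below is one between these libraries.

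When the receptor meets antigen, the Src-family kinases Lck and Fyn phosphorylate the receptor chains, and Zap70 docks there and phosphorylates the adaptors LAT and SLP-76 (Lcp2). On this scaffold phospholipase C gamma (Plcg1) makes the messengers that open calcium stores and recruit protein kinase C theta (Prkcq) and the Ras activator Rasgrp1. Phosphatases and inhibitory adaptors set the threshold for this chain in CD8+ T cells, and CD5 and CD6 on the surface tune it. The members were read here in 7 roles, namely kinases, adaptors, phosphatases, calcium genes, exchange factors with other effectors, the pair Bcl10 and Malt1, and surface receptors.

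The treatment list held 64910 peaks on the chromosomes kept and the control list 85137, and both shared the mm10 build. Each list was called on its own library. Cd3d, Cd3e, Cd3g and Cd247, markers of T cells of either lineage, had a peak within 1 kb of a gene end in each library. So did Cd8a and Cd8b1, markers of CD8+ T cells. The summed summit coverages of these 6 genes were 6286 reads in treatment and 6441 in control. Summit coverage is the number of reads, or fragments, piled up at the highest point of a peak, and was solved from the fold enrichment and p-value that the authors' peak caller wrote for it. None of the 3 B cell and none of the 2 NK cell markers had one in either library. Of 3 markers of CD4+ T cells, Cd4 had one in each, with 230 and 363 reads, while Foxp3 and Cd40lg had none. Of 4 myeloid markers, 1 in treatment (Itgam) and 3 in control (Itgam, Csf1r and Lyz2) had one, with summed coverages of 295 and 594 reads, and Adgre1 had none. The part of other cells in the results was not tested.

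Several members were accessible over their annotated starts, and the sequences of these windows are given for 4 genes whose data are described in detail. Each window runs from 250 bases before a start to 50 bases after it and was taken from RefSeq on build GRCm38.p6, the assembly behind mm10. Capitals mark matches on either strand to TGTGGT, a core bound by RUNX factors, or GGAAGT, a core bound by ETS factors, both of which are families that act in T cells. Lck is shown because it has an upstream and a downstream start, known as the distal and proximal promoters, and both lay in a shared peak. They lie on the minus strand at chr4:129573592-129573891 and chr4:129558323-129558622.
Lck distal window: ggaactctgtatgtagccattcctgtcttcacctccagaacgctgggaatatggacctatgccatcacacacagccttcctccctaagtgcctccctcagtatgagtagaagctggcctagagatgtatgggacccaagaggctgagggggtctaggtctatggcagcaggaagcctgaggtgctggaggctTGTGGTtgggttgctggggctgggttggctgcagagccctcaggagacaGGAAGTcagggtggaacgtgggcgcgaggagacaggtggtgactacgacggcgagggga
Lck proximal window: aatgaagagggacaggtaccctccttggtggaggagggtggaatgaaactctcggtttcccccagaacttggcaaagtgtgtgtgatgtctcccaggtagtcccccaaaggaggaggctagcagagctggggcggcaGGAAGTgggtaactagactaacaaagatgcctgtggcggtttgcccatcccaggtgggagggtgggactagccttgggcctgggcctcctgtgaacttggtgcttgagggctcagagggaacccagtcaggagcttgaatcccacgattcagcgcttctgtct
For Zap70, the first start lay in a shared peak and the second in a peak of control only. Their windows lie on the plus strand at chr1:36761548-36761847 and chr1:36764265-36764564.
Zap70 first window: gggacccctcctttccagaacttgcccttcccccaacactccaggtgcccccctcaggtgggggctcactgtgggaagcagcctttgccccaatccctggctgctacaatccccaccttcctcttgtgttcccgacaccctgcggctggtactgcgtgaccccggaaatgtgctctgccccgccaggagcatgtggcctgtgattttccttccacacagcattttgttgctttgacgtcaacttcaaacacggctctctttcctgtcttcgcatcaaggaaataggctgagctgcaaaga
Zap70 second window: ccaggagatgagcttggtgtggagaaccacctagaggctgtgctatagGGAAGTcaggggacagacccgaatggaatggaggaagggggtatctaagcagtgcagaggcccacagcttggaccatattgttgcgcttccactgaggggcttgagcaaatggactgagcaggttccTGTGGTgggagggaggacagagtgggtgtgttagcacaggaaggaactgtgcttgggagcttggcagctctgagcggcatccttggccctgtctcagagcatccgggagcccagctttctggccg
Cd5 and Stim1 are shown because they had the largest excess of peaks in treatment. Their windows lie at chr19:10738925-10739224 on the minus strand and chr7:102267569-102267868 on the plus strand.
Cd5 window: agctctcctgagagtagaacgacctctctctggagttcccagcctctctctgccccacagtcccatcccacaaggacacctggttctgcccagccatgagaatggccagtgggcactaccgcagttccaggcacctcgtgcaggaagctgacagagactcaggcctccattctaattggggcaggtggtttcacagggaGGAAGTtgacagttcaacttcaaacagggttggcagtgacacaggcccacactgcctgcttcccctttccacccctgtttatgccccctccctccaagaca
Stim1 window: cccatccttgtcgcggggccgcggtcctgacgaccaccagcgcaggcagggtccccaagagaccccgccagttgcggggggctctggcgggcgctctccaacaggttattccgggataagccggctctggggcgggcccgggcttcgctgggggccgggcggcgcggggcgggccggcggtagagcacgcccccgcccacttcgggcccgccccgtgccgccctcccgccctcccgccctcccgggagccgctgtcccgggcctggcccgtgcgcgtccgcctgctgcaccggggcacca
The GGAAGT core occurred once in both Lck windows, in the second Zap70 window and in the Cd5 window. TGTGGT occurred once in the distal Lck window and once in the second Zap70 window. The Stim1 window differed in composition, with 78.7% G and C, 38 CpG dinucleotides and 8 matches to the GC box GGGCGG, against 57.3% and 3 CpG in the Cd5 window. Over the 44 windows of the 31 members in the table, 36.4% held GGAAGT, 20.5% TGTGGT and 40.9% GGGCGG, against 24.8%, 15% and 46.2% of the 21263 windows of protein-coding genes. The TATA box TATAAA was found in 11.4% of member windows and 12.6% of all. No RUNX match overlapped an ETS match in a member window. A match describes letters and not binding.

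The signalling loci as a whole held fewer treatment than control peaks, with a ratio of 0.852 (95% exact binomial interval 0.759 to 0.957), against 0.776 (0.767 to 0.786) over all protein-coding loci. With the control list reduced to the length of the treatment list by −log10 p, the ratio at the members was 1.16, against 1.01 over all loci, so the direction depended on list length. Peak numbers at single members ran from 2 to 35 in treatment, with a median of 11, and from 2 to 43 in control, with a median of 13. Fewer peaks in treatment were found at 29 members, against 56.0% of all loci with a peak. More peaks were found at 6 members, namely Stim1, Cd5, Grap2, Prkcq, Sla2 and Ppp3cb, against 7.08% of loci. The remaining 8, Txk, Lat, Lcp2, Nck1, Sh2d2a, Ptpn6, Sos1 and Rasa1, had as many in each. Loci with more peaks can differ more easily, so members were also read beside loci of like peak number. Among loci with 8.5 to 20.5 control peaks, between the quartiles of the members, 17 of 21 members had fewer peaks in treatment and 1 had more, against 85.2% and 5.88% of such loci. With lists of equal length, 13 members that had fewer peaks in treatment had more instead, which were Fyn, Zap70, Prkch, Grb2, Skap1, Themis, Trat1, Sla, Ptpn2, Ptprc, Ubash3a, Rasgrp1 and Cd6. The same turn was seen at 16.6% of all loci with fewer peaks in treatment, while control peak numbers had a median of 13 at the members and 4 at all loci with a peak. In all, 25 of the 43 members then had more and 12 fewer peaks in treatment, against 25.5% and 25.6% of loci. Loci of like peak number were not read with lists of equal length, so this gap cannot be told apart from the higher peak numbers of the members.

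**Figure D1:**
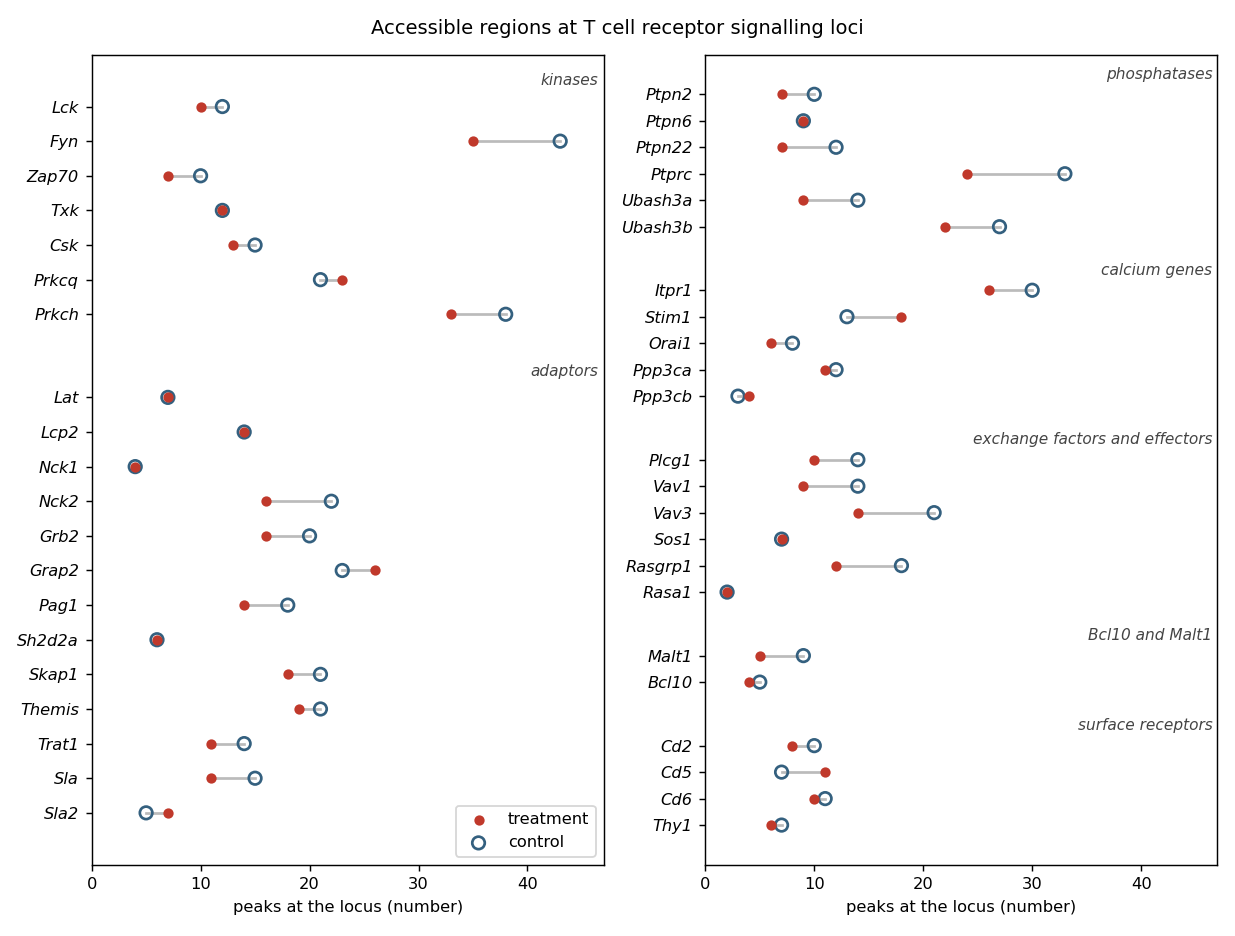
Number of peaks at each of the 43 loci (gene span with 10 kb on each side), by role, with filled red points for treatment and open blue points for control, 1 library each. Treatment points lie left of control points at 29 loci, right of them at 6 and on them at 8, and with lists of equal length 13 of the 29 lie on the other side.

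Of the treatment peaks at the members, 48 of 543 or 8.84% (95% Wilson interval 6.73 to 11.5%) had no overlap with a control peak, against 6.28% at all loci. In the other direction, 146 of 637 control peaks or 22.9% (19.8 to 26.3%) had no overlap in treatment, against 27.5%. Intervals cover counting error only. Peaks of 1 library were weak and narrow. In treatment they had a median summit coverage of 75 reads and a median width of 257.5 bp, and the shared ones 294 reads and 539 bp. In control the corresponding values were 91 reads and 266.5 bp, and 407 reads and 609 bp. Lat, Nck1, Ptpn6 and Sos1 had every peak of both libraries shared, and Lat, Nck1, Ptpn6, Sos1, Stim1, Cd5, Sla2 and Ppp3cb had no control-only peak. How many of all loci have every peak shared, or no control-only peak, was not counted. Full sharing is therefore given as a description of these loci and not as a trait of the members.

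Roles differed in how many of their control peaks were missing from treatment, although all intervals overlapped. The lowest share was at calcium genes, 16.7% (9.57 to 27.4%), then surface receptors, 17.1% (8.10 to 32.7%), adaptors, 19.5% (14.5 to 25.7%), and kinases, 19.9% (14.3 to 26.9%). Phosphatases had 29.5% (21.6 to 38.8%), exchange factors and effectors 34.2% (24.5 to 45.4%), and Bcl10 with Malt1 35.7% (16.3 to 61.2%) of only 14 peaks. Treatment-only shares followed another order, with 17.1% at surface receptors, 13.8% at calcium genes, 9.77% at kinases, 7.69% at adaptors, 7.41% at exchange factors and 3.85% at phosphatases. Bcl10 and Malt1 had 0 of 9, with a Wilson interval up to 29.9%. Moving the calcineurin subunits to the phosphatases and Plcg1 to the calcium genes left the 3 shares it touches within their intervals. This order of roles did not hold with lists of equal length. The control-only shares then were 15% for calcium genes, 10.3% for surface receptors, 7.41% for adaptors, 9.65% for kinases, 10.6% for phosphatases, 10.9% for exchange factors and 18.2% for Bcl10 with Malt1, against 15.1% at all loci.

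**Figure D2:**
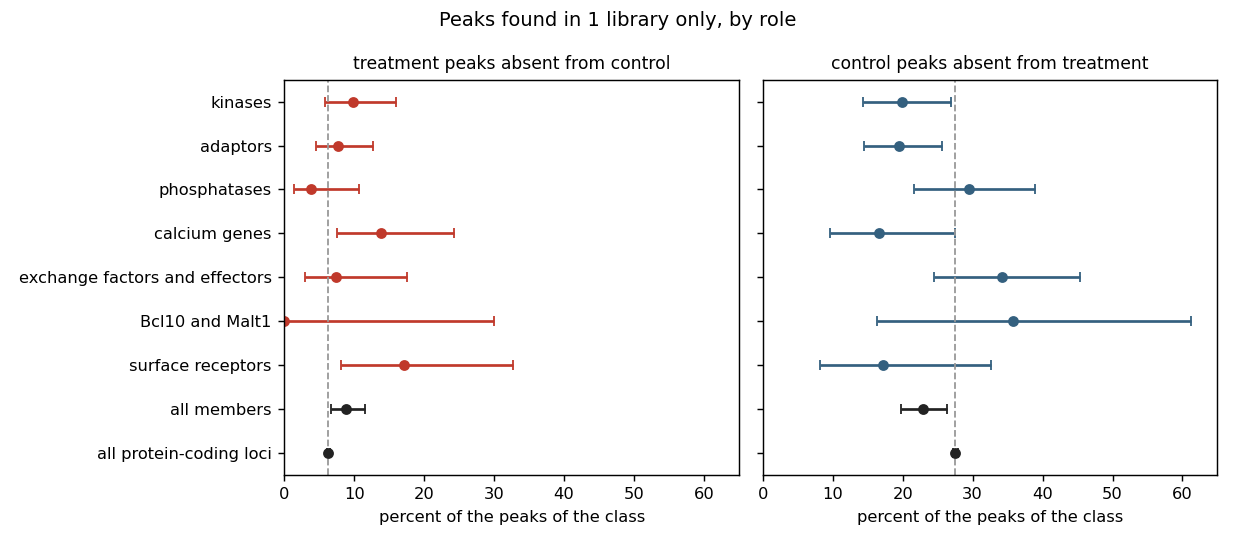
Percent of treatment peaks absent from control (left) and of control peaks absent from treatment (right), by role, with 95% Wilson bars and dashed lines at all protein-coding loci (6.28% and 27.5%). The phosphatases, the exchange factors and the pair Bcl10 and Malt1 have their control-only points right of the dashed line, at 29.5%, 34.2% and 35.7%, with bars that cross it.

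Kinase loci held 133 peaks in treatment and 151 in control. Fyn (chr10:39369743-39565381), which acts beside Lck, had the most peaks of any member, 35 in treatment and 43 in control. Of these, 1 and 9 were found in that library only, and 8 of the 9 control-only summits lay in the gene body. Prkch, which encodes protein kinase C eta, had 33 and 38 peaks. When the lists were cut to one length, treatment exceeded control at Fyn (35 against 29) and Prkch (33 against 32). Prkcq, the protein kinase C theta of the immune synapse, was the only kinase with more peaks in treatment, 23 against 21. It had 1 peak fewer in treatment with 50 kb on each side and also at a −log10 q of at least 10. Its treatment-only peak at chr2:11189664-11189945 reached a summit coverage of 399 reads but a fold enrichment over local background of only 2.31, and of its 4 treatment-only peaks 1 lay at a gene end.

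Prkch also held the matched peaks farthest apart in either direction, where matched means that a control and a treatment peak overlapped each other and no further peak. At chr12:73679457-73679706 in its gene body the summit coverage was 261 reads in treatment and 61 in control. At chr12:73779216-73779948 in its flank it was 103 reads in treatment and 623 in control. Both lie at the same locus, whose median ratio of treatment to control coverage was 0.853 over 28 matched peaks. Txk, a Tec-family kinase, had 12 peaks in each library, of which 3 and 3 were unshared, and its 9 matched peaks had a median ratio of 1.01. Csk, which phosphorylates the inhibitory tyrosine of Lck, had 13 and 15 peaks, all 13 of them shared.

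Lck and Zap70 were singled out after their values were seen, because both have several annotated starts. At the distal start of Lck, used in mature T cells, the summit coverage was 1017 reads in treatment and 1517 in control. The proximal start, which is mainly used in thymocytes, had 1368 and 1598 reads. The coverage in treatment was thus 0.670 times that in control at the distal start and 0.856 times at the proximal one. Summits lay 35 and 30 bp before the distal start in treatment and control, and 155 and 127 bp before the proximal one. Lck had 10 and 12 peaks, or 10 in each at equal list length, and only 1 of its 10 matched peaks, near chr4:129565093-129565532 in control, was higher in treatment, with 492 reads against 357.

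At Zap70 there were 7 treatment peaks against 10 control peaks, or 7 against 5 at equal list length. Over its first start the summit coverage was 961 reads in treatment and 1286 in control, with summits 8 and 9 bp past the start. Over the second start only control had a peak, with a coverage of 573 reads and a fold enrichment of 2.27, within the lowest 2.63% of its list. The third start, in the gene body, had no peak in either library. None of the 6 matched peaks of Zap70 was higher in treatment, and their median ratio was 0.587.

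Adaptor loci held 169 peaks in treatment and 190 in control. Grap2, the adaptor GADS that links LAT to SLP-76, had 26 in treatment and 23 in control, and it kept the excess with 50 kb on each side. Lists of equal length drop control peaks only, so they cannot lower an excess in treatment. At a −log10 q of at least 10 Grap2 had equal numbers. Its 4 treatment-only peaks included one at chr15:80630099-80630612 with a coverage of 257 reads and a fold of 4.87, and 1 control peak covered 2 treatment peaks. Sla2, an inhibitory adaptor related to Src kinases, had 7 and 5 peaks. Its extra peaks were 1 treatment-only peak and the splitting of a control peak 2110 bp wide, over the start, into 2 in treatment.

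Nck2, which links the receptor to actin, showed the largest deficit of the adaptors, with 16 peaks in treatment and 22 in control. All 6 missing peaks were control-only. It had 1 peak fewer in treatment with lists of equal length. Its relative Nck1 had 4 and 4 peaks, all shared, with a median ratio of 0.991 over 4 matched peaks. Grb2, which brings SOS to LAT, had 16 and 20 peaks, and 16 against 10 with lists of equal length. It had 2 treatment-only peaks of −log10 q above 10, and at chr11:115664014-115664461 its coverage was 321 reads in treatment and 105 in control.

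Lat, the central scaffold, had 7 peaks in each library, all shared, and its start carried 1957 reads in treatment and 2439 in control. Lcp2 had 14 and 14, with 1 unshared in each. Skap1, an adaptor for integrin activation, had 18 and 21 peaks, and Sla, the relative of Sla2, 11 and 15, of which 2 and 6 were unshared. At equal list length treatment exceeded control by 1 peak at both. The other adaptors, Pag1, Sh2d2a, Themis and Trat1, held 6 to 19 peaks in treatment and 6 to 21 in control, and none of them had a treatment-only peak of −log10 q above 10.

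Phosphatase loci held 78 peaks in treatment and 105 in control, a ratio of 0.743 (0.547 to 1.01), and no member had more in treatment. Ptprc, which encodes CD45, the phosphatase that activates Lck, had 24 and 33 peaks, the largest difference of any member. Its 11 control-only peaks had summit coverages of 32 to 235 reads, and 7 of them were at 51 reads or below, where the lowest coverage of any control peak was 29 reads. With lists of equal length none of them remained, and Ptprc had 24 peaks in treatment and 13 in control. Its start had 452 reads in treatment and 511 in control.

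Ubash3b, a suppressor of receptor signalling, had 22 and 27 peaks, and fewer in treatment with lists of equal length too, 22 against 25. It had 6 control-only peaks, among them one of 792 reads at chr9:41078359-41078762, 1 kb from its downstream start. Ptpn22, which dephosphorylates Lck and Zap70, had 7 and 12 peaks, with 0 and 5 unshared, and 7 against 8 with lists of equal length. Its missing peaks included one at chr3:103904664-103904970 with a fold of 9.77 and one of 371 reads at chr3:103872706-103873112. Ptpn6, the phosphatase SHP-1, had 9 and 9 peaks, all shared, but lower coverage at each of the 9, with a median ratio of 0.607. Over its annotated start the coverage was 356 reads in treatment and 812 in control.

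Calcium genes held 65 peaks in treatment and 66 in control, a ratio of 0.985 (0.688 to 1.41). Stim1 (chr7:102261514-102437319), the calcium sensor of the endoplasmic reticulum, had 18 peaks in treatment and 13 in control, the largest excess of any member. No control peak was missing, 4 treatment peaks were unshared and 1 control peak covered 2 treatment peaks. Of the 4, one at chr7:102322111-102322484 had a coverage of 308 reads and a fold of 8.23, and the nearest control peak was 3793 bp away. The other 3 had 32, 49 and 42 reads, close to the lowest coverage called in treatment, 31 reads. The excess of Stim1 was 2 at a −log10 q of at least 10 and 2 with 50 kb on each side. It was 8 with lists of equal length, which drop control peaks only and so cannot lower it.

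The shared peaks of Stim1 were mostly lower in treatment. The peak that covers its listed start, which lies inside the gene span, reached 1757 reads in treatment and 1956 in control. Its summit lay 932 bp before that start in both. At the upstream end of the span, the peak at chr7:102260622-102260964 in treatment went the other way, with 352 reads there and 266 in control. Of the 12 matched peaks of Stim1 3 were higher in treatment, and the median ratio was 0.892. The peak at chr7:102326277-102326833 in control had 310 reads there and 70 in treatment. Cd5 in the surface group had the same form, with 4 unshared peaks in treatment, 3 of them in the gene body, beside shared ones that were mostly lower.

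**Figure D3:**
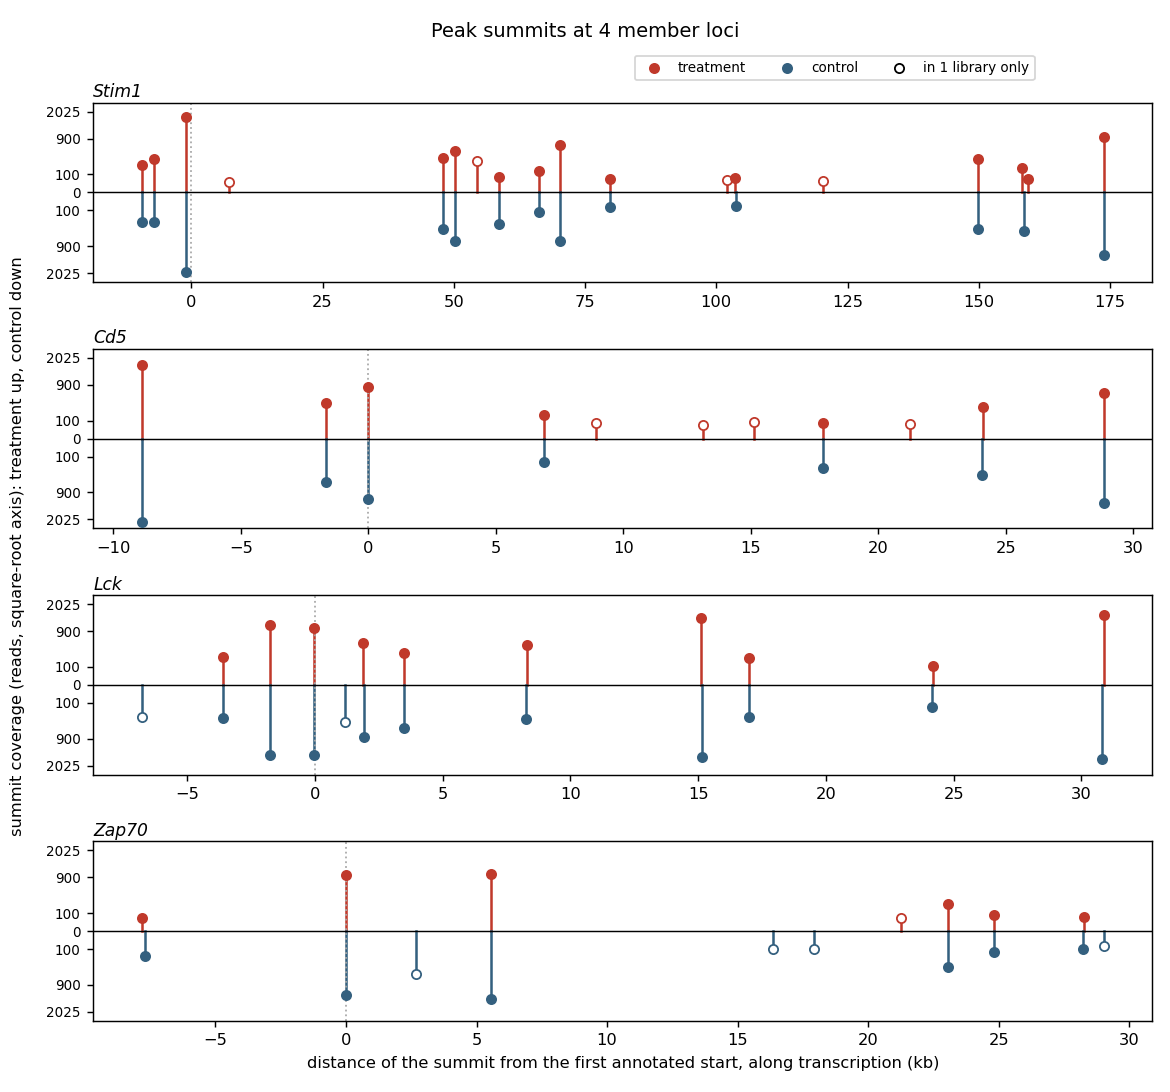
Summit coverage in reads (square-root axis) of every peak at Stim1, Cd5, Lck and Zap70 against the distance from the first listed start in kb, with treatment upward in red and control downward in blue, and open points for peaks of 1 library only. The listed start of Stim1 lies inside its gene span. Stim1 and Cd5 have 4 open points each in treatment and none in control, while Lck has none in treatment and 2 in control and Zap70 has 1 in treatment and 4 in control.

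Itpr1, the calcium channel of the endoplasmic reticulum, had 26 treatment peaks, 2 of them unshared, and 30 control peaks, 6 of them unshared. Its treatment-only peak at chr6:108221801-108222524 had the highest fold of all 48 at the members, 12.9, with 326 reads, and the nearest control peak was 480 bp away. Its matched peaks were low in treatment, with a median ratio of 0.605 over 24. Ppp3ca and Ppp3cb, which encode 2 of the catalytic subunits of calcineurin, had 11 and 4 peaks in treatment and 12 and 3 in control. Ppp3ca had a treatment-only peak at chr3:136837622-136837846, with 81 reads and 46820 bp from any control peak, and a control-only one at chr3:136778955-136779220 with 163 reads. Orai1, the pore of the store-operated channel, had 6 and 8 peaks and nearly equal coverage over its start, 1774 reads in treatment and 1851 in control.

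Exchange factors and effectors held 54 peaks in treatment and 76 in control, a ratio of 0.711 (0.492 to 1.02). Vav3, a guanine nucleotide exchange factor, had 14 and 21, and kept a deficit at 14 against 18 with lists of equal length. Its 7 control-only peaks all lay in the gene body, at 64 to 150 reads, and 3 of them had folds of 8.38 to 9.97. The 14 matched peaks of Vav3 had a median ratio of 0.558. Rasgrp1 had 12 and 18 peaks, with 3 and 9 unshared, and 12 against 9 with lists of equal length. Vav1, the main Vav protein of T cells, had 9 and 14 peaks, with 0 and 5 unshared, and 9 in each list at equal length.

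Plcg1 had 10 peaks in treatment and 14 in control, yet its start was more covered in treatment, with 1614 reads against 1300 in control. Sos1, an exchange factor for Ras, held the peak of highest fold enrichment of the whole group in both libraries, at chr17:80468348-80468969 in treatment, where the fold enrichment was 26.7 in treatment and 28.4 in control. All 7 of its peaks in each library were shared, with a median ratio of 0.867. Rasa1, a GTPase-activating protein that turns Ras off, had the fewest peaks, 2 in each library, with its start in both and the second peak different.

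Bcl10 and Malt1, which act together to activate NF-κB, held 9 peaks in treatment and 14 in control. Malt1 had 5 and 9, with 4 control-only peaks of 38 to 221 reads. Bcl10 had 4 and 5. Its start was among the most covered of all members, with 2492 reads in treatment and 2453 in control.

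Surface receptors held 35 peaks in each library. Cd5 (chr19:10718107-10739026), which dampens receptor signalling, had 11 in treatment and 7 in control. Its excess was 2 at a −log10 q of at least 10 and 1 with 50 kb on each side. It was 4 with lists of equal length, which cannot lower it. All 7 control peaks were shared, and 6 of the 7 were higher in control. Over its start the coverage was 814 reads in treatment and 1143 in control. Cd6, the neighbour and relative of Cd5, had 10 and 11 peaks and a treatment-only peak at chr19:10821237-10821879 with 148 reads and a fold of 7.42. Cd2, which binds CD48 on other cells, had 8 and 10 peaks and a median ratio of 1.18 over 8 matched peaks, 4 of them higher in treatment. A Cd2 peak at a gene end, chr3:101276518-101277159 in control, had 1097 reads in treatment and 667 in control. Its other gene-end peaks were slightly lower in treatment. They had 1639 reads in treatment against 1743 in control, and 472 against 500. Thy1 had 6 and 7 peaks.

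At matched peaks, the summit coverage could be compared peak by peak. Total depth is not known. The lowest local background divided by the narrowest peak width was 1.01 times as high in treatment as in control. Whether this value follows depth hangs on peak-calling settings that are not given, so it does not show that depth was equal. Over 478 matched member peaks, the median ratio of treatment to control was 0.742 (0.719 to 0.778), against 0.720 over 45949 matched peaks at all loci. Treatment was lower by 1.5-fold or more at 165 of them (34.5%), against 42.2% at all loci, and higher by 1.5-fold or more at 15 (3.14%), against 2.42%. Medians by role were 0.766 for kinases, 0.767 for adaptors, 0.749 for surface receptors, 0.746 for exchange factors, 0.714 for Bcl10 and Malt1, 0.707 for calcium genes and 0.685 for phosphatases. The interval of the phosphatases, 0.630 to 0.766, overlapped that of the kinases, 0.729 to 0.824.

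**Figure D4:**
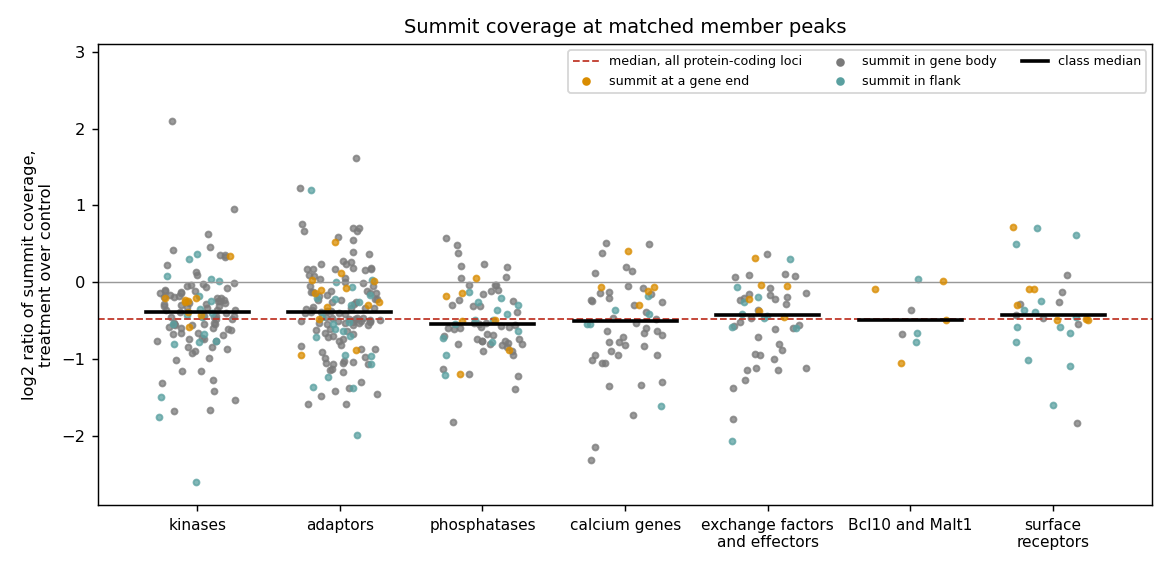
Log2 ratio of treatment to control summit coverage at each matched member peak, by role, coloured by position, with black bars at role medians and a dashed line at the median of all protein-coding loci. Role medians range from 0.685 to 0.767 as ratios, and most points at gene ends lie above the dashed line.

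Coverage ratios at gene ends were nearer to 1 than elsewhere, at the members as at all loci. By summit, 10.7% of member peaks in treatment and 8.95% in control lay within 1 kb of an end of their gene, 70.9% and 72.4% in the gene body and 18.4% and 18.7% in the flank. Gene-end peaks were wide, with medians of 1029.5 bp in treatment and 1115 bp in control, against 472 and 491 bp in gene bodies. The median coverage ratio was 0.861 over 51 matched peaks at gene ends, 0.727 over 338 in gene bodies and 0.723 over 89 in flanks, assigned by the control summit. Over all loci the corresponding medians were 0.829, 0.685 and 0.666. Treatment-only peaks made up 6.90% (2.71 to 16.4%) of those at gene ends, 9.61% (7.05 to 13.0%) of those in gene bodies and 7% (3.43 to 13.7%) of those in flanks, against 1.54%, 8.18% and 7.10% at all loci. Control-only peaks made up 5.26% (1.81 to 14.4%) of those at gene ends and 24.9% (21.2 to 29.1%) of those in gene bodies and 23.5% (16.8 to 31.9%) of those in flanks, against 12.9%, 31.9% and 31.5%.

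Annotated starts showed the same in finer detail. Of the 44 start windows of 31 members, 35 held a peak in both libraries, 0 in treatment only, 2 in control only (the second Zap70 start and one of 2 Grb2 starts, whose control peak also covers the other) and 7 in neither. Over all protein-coding genes, 56.3% of windows held a peak in both, 0.198% in treatment only, 3.68% in control only and 39.8% in neither. The median ratio at the member windows was 0.856 (0.802 to 0.910), against 0.871 for all genes, and windows close together share peaks. Coverage was higher in treatment at 4 of the 35 windows, those of Bcl10, Nck1, Plcg1 and Trat1, against 20.7% of such windows over all genes. Trat1, a transmembrane adaptor of the receptor, had 354 reads in treatment and 242 in control. At the low end, the downstream start of Txk had 58 and 154 reads and that of Ptpn6 a ratio of 0.438. Grap2 and Ubash3b had no peak over a listed start window in either library, but both had shared peaks nearby or at a gene end. The listed start of Grap2 lies inside its gene span, as do, among others, those of Stim1, Trat1 and Grb2. At a gene end, chr15:80571733-80572905 in treatment, Grap2 had 1615 reads in treatment and 1695 in control. Ubash3b had a peak of 596 reads in treatment and 732 in control, its treatment summit 503 bp past a listed start.

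**Figure D5:**
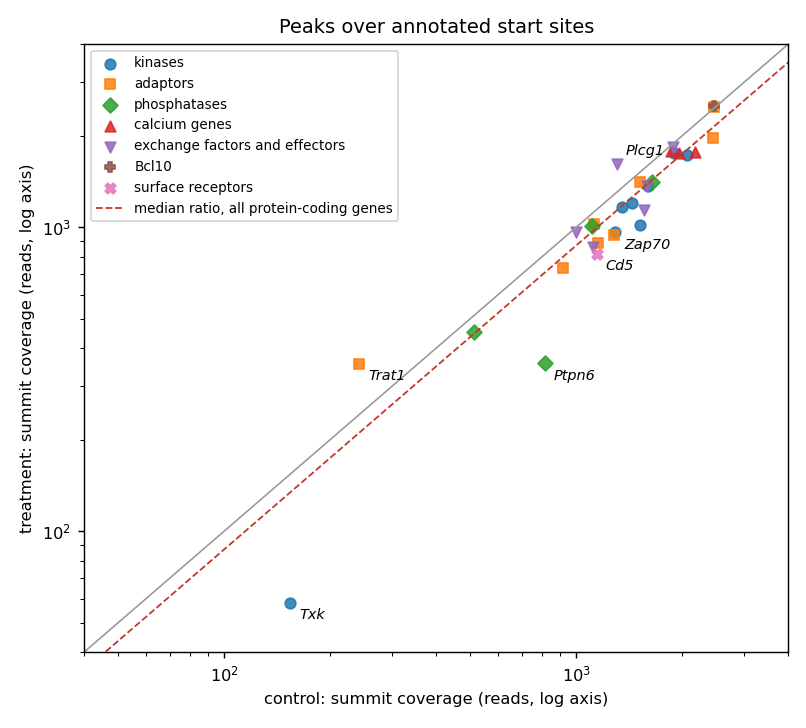
Summit coverage in reads (log axes) of the peak over each annotated member start, treatment against control, with the grey line at equality and the dashed line at the median ratio of all protein-coding genes (0.871). Most points lie close to the dashed line, Txk (downstream start) and Ptpn6 lie below it, and Plcg1 and Trat1 lie above the grey line.

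Member peaks were not stronger than others by fold enrichment, although their coverage was high. The median fold was 6.04 (5.39 to 6.59) in treatment and 5.96 (5.47 to 6.47) in control, against 7.51 and 8.20 at all loci of the same list. Their median summit coverage, in contrast, was 257 reads in treatment and 298 in control, against 208 and 239. Fold is taken over the local background, whose median at member peaks was 41.2 reads in treatment and 45.3 in control, against 23.9 and 24.8 at all loci. Median widths were 504 bp in treatment and 524 bp in control, against 558 and 540 bp. By role, calcium genes had higher folds, 7.23 and 9.42, than adaptors, 5.25 and 5.37.

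Sharing was also read within quartiles of strength of the own list, a division added after the data were seen. In the second quartile of fold, 14.5% (9.91 to 20.6%) of control member peaks were missing from treatment, against 35.2% at all loci, and in the lowest 46.3% (40.2 to 52.6%) against 60.7%. In the highest, 0 of 82 were missing, with a Wilson interval up to 4.48%, against 1.95%. By quartile of summit coverage the shares lay closer, with 28.2% (21.1 to 36.7%) against 34.5% in the second and 59.7% against 68.4% in the lowest. The order turned in the third, 15.1% (10.5 to 21.2%) against 11.4%, and in the highest, 2.42% (1.04 to 5.53%) against 0.957%. For treatment member peaks missing from control, the share was 24.5% (17.5 to 33.4%) against 20.4% in the lowest quartile of coverage. It was 10.5% (5.95 to 17.8%) against 3.93% in the second and 5.88% (3.23 to 10.5%) against 1.98% in the third. In the highest, 0 of 158 were missing, against 0.0494%.

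A further 30 genes of the pathway, listed from textbook knowledge, were read in the same way. Among them, the locus of Tec overlaps that of the member Txk, so the peaks there are counted in both sets. Their loci held 295 peaks in treatment and 361 in control, a ratio of 0.817, against 0.776 over all loci. In peak number 21 of these genes were lower in treatment, 5 higher and 4 equal, against 56.0% of loci lower and 7.08% higher. Of the treatment peaks 7.46% (4.98 to 11.03%) and of the control peaks 23.3% (19.2 to 27.9%) were unshared, and both intervals hold the values of all loci, 6.28% and 27.5%. Itpr2, another calcium channel of the stores, had 22 and 31 peaks. Fyb, the adaptor ADAP, had 24 and 30. Cblb, a ubiquitin ligase that restrains signalling, had 20 in each. Ptprj, a receptor phosphatase, had 18 and 23 peaks and a median coverage ratio of 0.492 over 18 matched peaks, the lowest of the 30.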

How the data were processed

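One ATAC-seq library each of mouse CD8+ T cells titled treatment and control was available as a peak list on mm10. Per the submitters' processing notes, the tools were cutadapt 2.5, Bowtie2 2.3, Picard 2.20 and MACS2 without a version. Their settings, filters and read shift are not given in the sources used here. For each peak the authors deposited a score, a fold enrichment ratio, −log10 p, −log10 q and the summit offset. The score repeats −log10 q and was not used further. All other values were computed with Python 3.11.15, NumPy 2.4.6, pandas 2.3.3 and SciPy 1.17.1, and figures with Matplotlib 3.10.9. Peaks outside chromosomes 1 to 19, X and Y were dropped, and those with an overlap of at least 1 bp were called shared. The lists hold no read totals, so depth per library is unknown. Summit coverage was taken as the whole number whose Poisson −log10 p lay within 0.001 of the deposited one, and was found for 99.98% of treatment and 99.99% of control peaks. The solving of summit coverage was tested on simulated coverages, which left out the highest −log10 p. Sharing was tested on the treatment list against a copy with peaks removed, and locus counts against a direct count. A gene end is within 1 kb of either end of the RefSeq span. With 1 library per group no test was made, and shares carry Wilson 95% intervals, ratios of counts exact binomial ones and medians order-statistic ones. The members, roles and lists were chosen with earlier results of these data known. Values were described, within each role, for the member with the most control peaks, the largest differences in either direction, members with a treatment-only peak of −log10 q of at least 10, members with no control-only peak among at least 5 control peaks, and the member of each library's peak of highest fold. Alternatives were a control list cut to the length of the treatment list, margins of 0 and 50 kb, −log10 q of at least 10, 50% reciprocal overlap, summits within 150 bp and other roles for calcineurin and Plcg1.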

Additional observations from a re-analysis of the deposited data

How the results depend on the processing

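Of 115 values recomputed under the alternatives, 83 stayed within their interval or within 1.5 times the count, 31 moved and 1 turned. Some of these outcomes were fixed by the setting. Reducing the control list leaves widths, folds and positions of treatment peaks unchanged, and these count among the 83. With the gene span alone, the flank share has to fall and the gene body share to rise. The ratio of treatment to control peaks turned to 1.16 (all loci 1.01) when the control list was reduced to the length of the treatment list. The percent of control peaks absent from treatment then was 10.2% in all (all loci 15.1%), 9.65% for kinases, 7.41% for adaptors, 10.6% for phosphatases and 10.9% for exchange factors, that of treatment peaks absent from control 21.4% (all loci 15.4%), and 12 members had fewer and 25 more peaks in treatment (all loci 25.6% and 25.5%). Control peaks then had a median width of 613 bp and a median fold of 7.81. With 50 kb on each side, the median fold was 6.71 in treatment and 6.84 in control, and 7.06% and 5.72% of peaks lay at a gene end, 46.9% and 47.1% in the gene body and 46.0% and 47.2% in the flank. With the gene span alone these were 89.95% and 91.7% in the gene body and 0% and 0% in the flank. At a −log10 q of at least 10, the treatment-only percent was 6.57%, the median treatment width 546 bp and the median fold 6.71 in treatment and 6.47 in control. With 50% reciprocal overlap, 16.6% of treatment and 29.0% of control peaks were unshared, and 29.5% of control peaks at adaptors. With summits within 150 bp these were 15.8% and 28.4%. The cause of these moves was not tested. Depth is unknown, and with 1 library each, neither leaving out a library nor a measure of replicate spread could be had. No paired analysis was possible because each group holds 1 library.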

Other observations

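Some member peaks were joined in one library and separate in the other. A treatment peak overlapped 2 control peaks at 4 places, in Themis, Prkch, Prkcq and Lat. A control peak overlapped 2 treatment peaks at 7 places, in Themis, Grap2, Sla2, Sh2d2a, Stim1, Lat and Ubash3b. Such peaks were 0.808% of the shared treatment peaks and 1.43% of the shared control peaks of the members, against 0.628% and 1.02% at all loci. They enter the peak numbers and were left out of the coverage ratios.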
